A study of Mus musculus with 6 samples.

Results

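The genes of the DNA replication machinery were followed in mouse two-cell embryos that overexpressed the SUMO E3 ligase PIASy. The set had 44 genes, chosen by name from the 53023 genes of the table for their known roles. By role there were 6 subunits of the origin recognition complex, 3 licensing factors, 6 subunits of the MCM helicase and Mcm10. Next along the pathway were 5 genes for Cdc45 and the GINS complex, 10 genes for subunits of the replicative polymerases, the clamp gene Pcna, 5 clamp loader genes, 3 RPA genes, 2 strand maturation genes and 2 fork genes. Each of 3 groups had 2 libraries, and each library was a pool of 5 two-cell embryos of the ICR strain, made by in vitro fertilization and collected at 28 hpi (hours post insemination). Non-injection embryos received no mRNA and no injection. PIASy-WT embryos were injected into the cytoplasm with 100 ng/µl of mRNA for HA- and mCherry-tagged wild-type PIASy between 1.5 and 3 hpi. For culture to the blastocyst stage, the paper states that zygotes with fluorescence at 9 hpi were chosen. It does not say whether embryos of the sequenced pools were chosen so. PIASy-Mut embryos were treated alike with mRNA for PIASy carrying C335F, a change in the RING finger domain that removes SUMO ligase activity. The groups were compared to ask which genes differ with PIASy-WT and not with its ligase mutant. PIASy-Mut shares with PIASy-WT the injection that the non-injection embryos lack.

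Before a genome is copied, the origin recognition complex binds DNA and, with Cdc6 and Cdt1, loads the ring-shaped MCM helicase, while geminin, the product of Gmnn, binds Cdt1 and keeps origins from being licensed again. In S phase Cdc45 and the GINS complex join MCM to make the active helicase. Polymerase alpha-primase then lays down primers, polymerases delta and epsilon extend them on the clamp PCNA, which the RFC clamp loader places on DNA, and RPA covers single strands. A mouse embryo starts with replication proteins and mRNAs stored in the oocyte, and its own transcription takes over around the two-cell stage.

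Levels are given as FPKM, fragments scaled by gene length and library size, so they can be compared between genes and are shares of each library. Whole fragments could be recovered from the table, and the libraries held between 871663 and 1363928 fragments on genes. Spike-in RNA was added at lysis but the table has 0 spike-in rows, so RNA per embryo was not compared. A gene with at most 3 fragments in each library of a group was taken as being at the limit of detection, which covers counting error only. In pooled embryos, fewer embryos expressing a gene and less RNA of it in each embryo cannot be told apart. Pias4, the gene for PIASy, held 2.98 and 3.59 FPKM in the non-injection libraries, 862 and 611 in those of PIASy-Mut and 610 and 579 in those of PIASy-WT. The PIASy-WT libraries stood apart over all genes. Their Pearson correlation with the others was 0.699 to 0.846 across the 16100 genes tested, against 0.884 to 0.899 between non-injection and PIASy-Mut libraries and 0.855 to 0.906 within a group. All 10 oocyte and early embryo markers were above the limit, with a summed FPKM of 2792 to 4477 in the other libraries and 4258 to 5000 in PIASy-WT. Of 7 two-cell stage markers 6 were above it, with sums of 1194 to 1359 and, in PIASy-WT, 609 to 835. Of 10 markers of cumulus cells, the follicle cells that surround an oocyte, 2 were above it in at least 2 libraries, Amh and Inhba were at 0 in every library, and the sum was 2.39 to 7.06 in the other libraries and 6.79 to 7.17 in PIASy-WT. Zp3 and Tdpoz4, of the first and second of these lists, were called lower in both PIASy-WT comparisons, and Tcstv3, of the second, against PIASy-Mut. Of the 10 oocyte and early embryo markers Zp3 and Padi6 had a negative log2 fold change against non-injection and the other 8 a positive one, with none called higher. The sperm and testis markers had 1 of 4 above it, with sums of 1.08 to 5.89 and, in PIASy-WT, 3.38 to 4.26. The part of these in the results on replication genes was not tested.

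In non-injection embryos the replication genes spanned from the limit of detection to a mean of 918 FPKM for Gmnn. Their median FPKM was 13.3, against 3.69 over all genes tested. By group mean 3 of the 44 exceeded 100, namely Gmnn, Orc6 and Cdc45, and 24 lay between 10 and 100. A further 15 lay between 1 and 10, and 2 were below 1, Fen1 and Pold1. Pold1, the catalytic subunit of polymerase delta (ENSMUSG00000038644.14), held 0 and 1 fragments in the non-injection libraries, 0 and 1 in those of PIASy-Mut and 1 and 1 in those of PIASy-WT. Fen1, the nuclease that trims flaps from lagging strand fragments (ENSMUSG00000024742.15), was read on 1 and 3 fragments without injection and on 0 in each of the other 4 libraries. Both were at the limit in every group, no fold is given for them, and the other 42 genes were tested. Fen1 overlaps Gm10143 and Tmem258, and Pold1 overlaps Gm44833, each on the other strand. How reads in the overlaps were counted is not known. The plot of levels by library shows these 42 genes in the order of their roles.

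**Figure D1:**
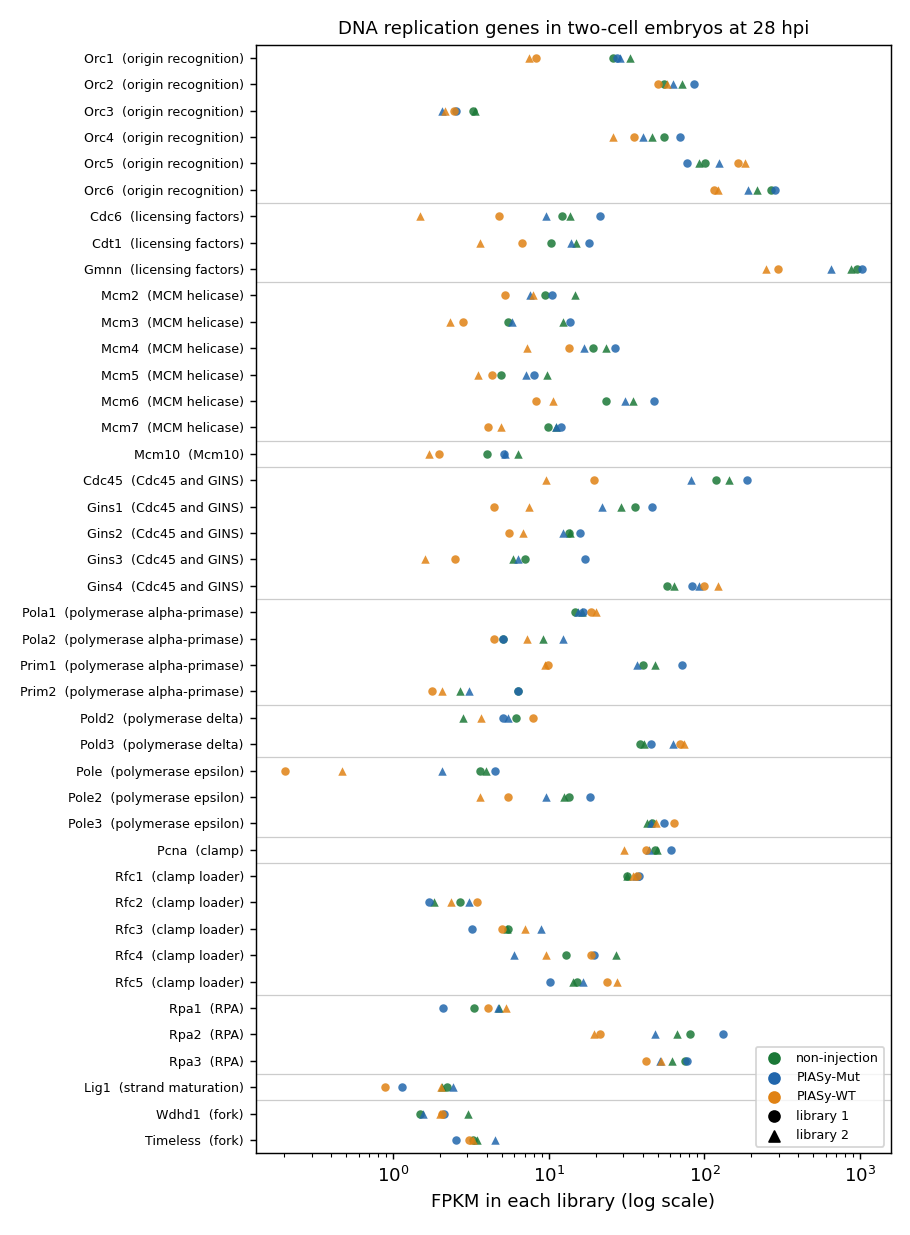
FPKM of the 42 tested replication genes on a log axis, 1 row per gene ordered by role, with a circle for library 1 and a triangle for library 2 of each group. Both PIASy-WT libraries lie to the left of all 4 others for 22 genes, Cdc45 and Pole among them, and to the right for 5, Orc5 and Gins4 among them.

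The replication genes that passed the test in PIASy-WT embryos were all lower. By limma, the test behind each call where no other is named, Orc1, Gmnn, Cdc45, Gins1 and Prim1 were called lower against both other groups. Mcm6 was called lower against PIASy-Mut, and no replication gene was called higher. Against non-injection 31 log2 fold changes were negative and 11 positive, where 7911 and 8129 of all genes tested were. Against PIASy-Mut the numbers were 29 and 13, where those over all genes were 8255 and 7773. Against non-injection, 5 of the 42 genes were called lower and 0 higher at an adjusted P of at most 0.05 by limma, where 5.76% of all genes tested were called lower and 1.03% higher. Against PIASy-Mut, 6 were called lower and 0 higher, where 6.01% and 0.82% of all genes were. The genes called lower were thus 11.9% and 14.3% of those tested in the set. When a log2 fold change of 2 or more in size was asked for as well, 3 were called lower in each comparison, Cdc45, Gins1 and Prim1, and 0 higher. Of all genes 3.81% and 4.06% were then called lower and 0.602% and 0.516% higher. Replication genes below an unadjusted P of 0.05 numbered 21 and 20, where 28.2% and 27.7% of all genes tested were. Over the 42 genes the median log2 fold change was -0.71 and -0.66 in these comparisons, where that over all genes was 0.01 and -0.03. With quantile normalization the medians were -0.49 and -0.30, where those over all genes were 0.12 and 0.11, and with a pseudocount of 5 they were -0.47 and -0.48. Both PIASy-WT libraries lay below all 4 others for 22 of the 42 genes, against 24.4% of all genes, and above them for 5, against 19.9%. The comparisons share the PIASy-WT libraries and so are not independent.

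The counts changed when a library was left out, which also takes 1 residual degree of freedom. Without either PIASy-WT library or either non-injection library, 0 replication genes were called in either comparison, where 0% of all genes were called lower and at most 0.00665% higher. Without PIASy-Mut library 1, 10 were called lower against non-injection and 0 against PIASy-Mut, where 12.2% and 0% of all genes were, and without PIASy-Mut library 2 the counts were 11 and 13, where 12.3% and 13.2% were. The fold change of Orc1 against non-injection was between -1.94 and -1.60 on the log2 scale over these fits and that of Cdc45 between -3.62 and -2.68. Against PIASy-Mut, Cdc45 was between -3.68 and -2.48, Gins1 between -2.79 and -1.75, Prim1 between -2.76 and -1.82, Mcm6 between -2.21 and -1.62 and Gmnn between -1.91 and -1.26. Fold changes against PIASy-Mut do not use the non-injection libraries and were the same without either of them. In voom on the recovered fragments, which weighs each value by its depth, 14 and 17 of the 42 genes were called lower and 3 and 2 higher, where 19% and 18.8% of all genes were called lower and 8.51% and 5.94% higher. With no filter on low values 0 were called, where 0.553% and 0.873% of all genes were called lower, and the 6 genes called otherwise had adjusted P-values between 0.051 and 0.078 in the comparisons where they had been called. Labels do not say whether libraries of a group came from separate fertilizations, so the P-values measure the spread between these libraries.

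**Figure D2:**
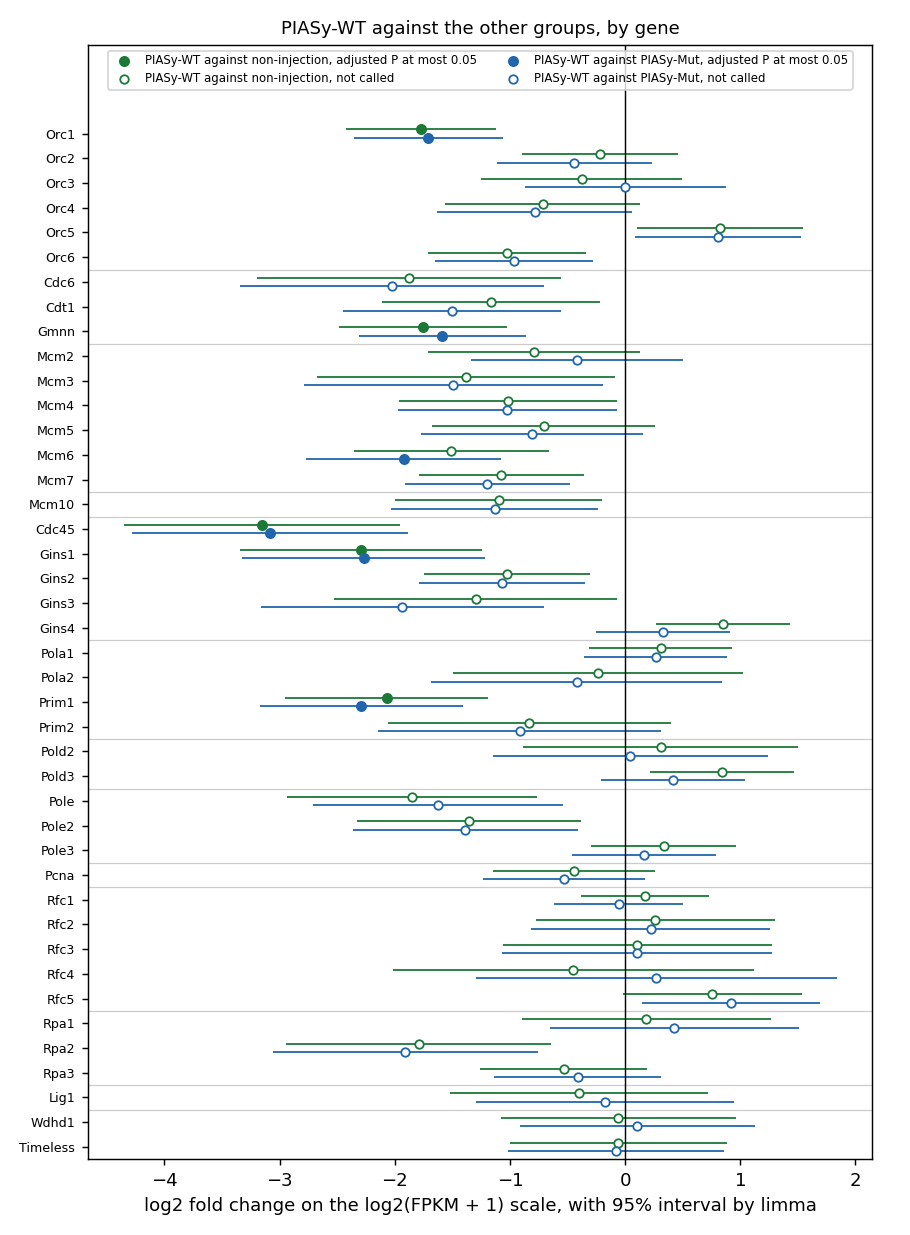
Log2 fold change of each tested replication gene in PIASy-WT against non-injection (green) and against PIASy-Mut (blue), with the 95% interval by limma as a bar and filled points for an adjusted P of at most 0.05. Filled points lie left of 0 for Orc1, Gmnn, Cdc45, Gins1 and Prim1 in both comparisons and for Mcm6 against PIASy-Mut, and no filled point lies right of 0.

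The sequence before the starts of the replication genes was read from the RefSeq promoter table (GRCm38.p6), which matched 36 of the 44 genes. Not matched were Gmnn, Gins1, Gins2, Gins4, Mcm4, Prim2, Pole and Rfc2. All of these but Gins4 and Rfc2 had both PIASy-WT libraries below all others. The 250 bases before each start were searched on both strands for an E2F motif, the letters of the factors that drive S phase genes (TTTCCCGC, TTTCGCGC, TTTGCCGC or TTTGGCGC), and for the CCAAT box. An E2F match was held by 9 of the 36 genes, 25%, against 2.16% of the 27025 genes of the promoter table. They were Cdc6, Gins3, Mcm5, Mcm6, Mcm7, Orc1, Orc3, Pola1 and Rfc3. Of the matched genes with both PIASy-WT libraries below all others, 6 of 16 had one, and of the other tested genes 3 of 18. A CCAAT box was held by 13 of those 16 and by 8 of those 18, beside 37.5% of the table. The Sp1 GC box (GGGCGG) was held by 11 of the 16, 13 of the 18 and 35.4% of the table, and CHR, the cell cycle homology element (TTTGAA), by 2 of the 16, 2 of the 18 and 18.3% of the table. Of the 5 genes with both PIASy-WT libraries above all others, Gins4 was not matched, Orc5, Pold3 and Rfc5 had neither an E2F match nor a CCAAT box, and Pola1 had 1 of each. The sequences of 4 genes called lower and, as 1 example of a gene that lay higher in PIASy-WT, of Orc5 are shown 5′ to 3′ towards the start, with E2F and CCAAT matches in capitals.
Cdc45 (chr16:18811973-18812222, minus strand): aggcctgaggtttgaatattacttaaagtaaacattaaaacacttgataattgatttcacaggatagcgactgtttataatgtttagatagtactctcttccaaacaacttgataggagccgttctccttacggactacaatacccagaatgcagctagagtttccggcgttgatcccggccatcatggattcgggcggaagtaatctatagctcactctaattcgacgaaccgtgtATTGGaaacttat
Prim1 (chr10:128014965-128015214, plus strand): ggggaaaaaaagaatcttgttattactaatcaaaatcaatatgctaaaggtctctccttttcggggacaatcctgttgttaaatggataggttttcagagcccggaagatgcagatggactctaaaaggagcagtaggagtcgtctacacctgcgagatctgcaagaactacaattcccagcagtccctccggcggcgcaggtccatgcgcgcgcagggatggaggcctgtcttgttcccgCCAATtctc
Orc1 (chr4:108579204-108579453, plus strand): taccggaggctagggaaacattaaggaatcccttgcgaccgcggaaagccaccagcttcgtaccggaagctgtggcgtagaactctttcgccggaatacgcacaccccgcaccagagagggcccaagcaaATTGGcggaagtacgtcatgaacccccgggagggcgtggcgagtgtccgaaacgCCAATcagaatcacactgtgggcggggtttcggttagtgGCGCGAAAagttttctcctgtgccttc
Mcm6 (chr1:128359706-128359955, minus strand): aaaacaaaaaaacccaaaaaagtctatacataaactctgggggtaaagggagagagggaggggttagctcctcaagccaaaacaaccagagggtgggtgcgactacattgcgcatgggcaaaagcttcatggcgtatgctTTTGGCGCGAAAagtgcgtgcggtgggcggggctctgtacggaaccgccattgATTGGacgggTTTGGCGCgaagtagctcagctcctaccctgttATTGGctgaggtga
Orc5 (chr5:22550339-22550588, minus strand): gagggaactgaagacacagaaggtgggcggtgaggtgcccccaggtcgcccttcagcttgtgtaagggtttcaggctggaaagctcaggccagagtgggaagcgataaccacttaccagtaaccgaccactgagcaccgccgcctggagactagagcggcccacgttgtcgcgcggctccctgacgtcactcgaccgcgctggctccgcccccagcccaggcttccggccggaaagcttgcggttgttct
Mcm6 has 3 E2F matches, at 110, 106 and 47 bases before the start, of which the first 2 overlap, and Orc1 has 1 at 27 bases. Cdc45 and Prim1 have no E2F match and 1 CCAAT box each, and Orc5 has neither. The GENCODE spans of Cdc45, Orc1, Prim1 and Orc5 begin inside these windows. A match describes letters and is no evidence of binding, and its bearing on the levels was not tested. The shares over the promoter table were not limited to the genes tested for expression.

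Of the 6 origin recognition genes, 1 fell by limma. Orc1 (ENSMUSG00000028587.18, plus strand of chromosome 4 of mm10 from 108579423 to 108614833), whose ATP-binding product varies with the cell cycle in mammalian cells, held 25.9 and 33.0 FPKM in the non-injection libraries, 27.3 and 28.7 in those of PIASy-Mut and 8.24 and 7.50 in those of PIASy-WT. Both PIASy-WT libraries lay far below the other 4, which were close to each other, and the PIASy-WT mean was 26.7% of that in non-injection. On the log2 scale Orc1 changed by -1.77 relative to non-injection (SE 0.27, limma adjusted P=0.029) and by -1.71 relative to PIASy-Mut (SE 0.27, limma adjusted P=0.029). Orc1 overlaps Gm12743 on the other strand, which had an FPKM of 0.204 to 2.88, and the kit does not mark strand.

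Orc6 and Orc5, the most abundant subunits by group mean, lay on opposite sides of the other groups in PIASy-WT and were called by voom but not by limma. Orc6 (ENSMUSG00000031697.12, plus strand of chromosome 8 from 85299632 to 85308278) held 268 and 217 FPKM in the non-injection libraries, 282 and 190 in those of PIASy-Mut and 114 and 122 in those of PIASy-WT. The PIASy-WT libraries lay below the rest without overlap, but the log2 fold changes of -1.03 (95% interval -1.71 to -0.34, limma adjusted P=0.079) and, set against PIASy-Mut, -0.97 (-1.65 to -0.28, adjusted P=0.092) were not called. In voom Orc6 was called lower in both comparisons (adjusted P=0.012 and 0.018). Orc6 overlaps Vps35 on the other strand, whose FPKM was between 17.3 and 20.3 in every library. Orc5 (ENSMUSG00000029012.11, minus strand of chromosome 5 from 22486485 to 22550429) held 101 and 92.5 FPKM in the non-injection libraries, 76.7 and 125 in those of PIASy-Mut and 163 and 181 in those of PIASy-WT. These PIASy-WT values were the highest of the 6, with log2 fold changes of 0.82 (95% interval 0.10 to 1.54, adjusted P=0.137 by limma) and 0.81 (0.09 to 1.53, adjusted P=0.143) that did not pass the threshold. In voom Orc5 was called higher in both comparisons (adjusted P=0.027 and 0.032), and over all alternatives its adjusted P against non-injection was between 0.027 and 0.429. Orc2, Orc3 and Orc4 had log2 fold changes between -0.72 and -0.22 against non-injection and between -0.78 and 0.00 against PIASy-Mut, and none was called by limma or voom. The signs of Orc2 and Orc3 were not stable over the alternatives.

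All 3 licensing factors lay below every other library in PIASy-WT, and Gmnn was called by limma. Gmnn (ENSMUSG00000006715.11, minus strand of chromosome 13 from 24751845 to 24761923), the licensing inhibitor geminin, was the most abundant replication mRNA in each library. It held 957 and 879 FPKM in the non-injection libraries, 1022 and 652 in those of PIASy-Mut and 295 and 249 in those of PIASy-WT, where the mean was 29.6% of that in non-injection. On the log2 scale Gmnn changed by -1.75 relative to non-injection (SE 0.30, limma adjusted P=0.033) and by -1.59 relative to PIASy-Mut (SE 0.30, limma adjusted P=0.038). With quantile normalization neither was called (adjusted P=0.052 and 0.064), and over all alternatives and both comparisons the adjusted P was between 0.00056 and 0.2.

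The loaders that geminin works against were far less abundant. Cdc6 (ENSMUSG00000017499.15, plus strand of chromosome 11 from 98907801 to 98923940), the ATPase that joins the origin complex, held 12.2 and 13.7 FPKM in the non-injection libraries, 21.3 and 9.65 in those of PIASy-Mut and 4.76 and 1.50 in those of PIASy-WT, the last from 9 fragments. The PIASy-WT libraries of Cdc6 differed from each other by more than the non-injection libraries did. Its log2 fold changes were -1.88 (95% interval -3.20 to -0.56, adjusted P=0.088 by limma) and -2.02 (-3.34 to -0.70, adjusted P=0.076), large but not called, while voom called Cdc6 in both comparisons (adjusted P=0.010 and 0.0077). Cdt1 (ENSMUSG00000006585.3, plus strand of chromosome 8 from 122568015 to 122573554), the partner that brings MCM to origins and the target of geminin, held 10.3 and 14.9 FPKM in the non-injection libraries, 18.2 and 13.9 in those of PIASy-Mut and 6.73 and 3.60 in those of PIASy-WT. The log2 fold changes of Cdt1 were -1.17 (95% interval -2.11 to -0.22, adjusted P=0.118 by limma) and -1.50 (-2.45 to -0.56, adjusted P=0.071), and voom called Cdt1 against PIASy-Mut (adjusted P=0.019). Summed, the 3 licensing genes held 979 and 907 FPKM in the non-injection libraries, 1062 and 675 in those of PIASy-Mut and 306 and 255 in those of PIASy-WT, nearly all of it Gmnn.

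For the MCM helicase, the ring that unwinds DNA, all 6 genes had negative log2 fold changes in both comparisons, between -1.51 and -0.71 against non-injection and between -1.92 and -0.42 against PIASy-Mut. Of these 1 was called by limma, Mcm6 against PIASy-Mut. In voom Mcm6 was called lower in both comparisons (adjusted P=0.0069 and 0.0018), as was Mcm7 (0.035 and 0.025), and Mcm3 against PIASy-Mut (0.048). Of the 50-base sequences of Mcm7 18.1% also occur in another gene and it overlaps Ap4m1 and Cops6 on the other strand, so its count is uncertain. Mcm6 (ENSMUSG00000026355.11, minus strand of chromosome 1 from 128331590 to 128359664) held 23.3 and 34.9 FPKM in the non-injection libraries, 47.1 and 31.0 in those of PIASy-Mut and 8.25 and 10.6 in those of PIASy-WT. Both PIASy-WT libraries lay below the other 4. On the log2 scale Mcm6 differed by -1.92 from PIASy-Mut (SE 0.35, limma adjusted P=0.035) and by -1.51 from non-injection (SE 0.35, limma adjusted P=0.056). Summed over the 6 genes the FPKM was 72.3 and 106 in the control libraries without injection, 118 and 79.6 with PIASy-Mut and 38.2 and 36.5 with PIASy-WT. The PIASy-WT sums were close to each other and lay below every other library. Mcm2 was the exception to the separation, with 5.21 and 7.88 in PIASy-WT and 7.59 in PIASy-Mut library 2. Mcm10, which binds the helicase and polymerase alpha as forks form, had a log2 fold change of -1.10 and -1.13 and was not called by limma but was called lower in both comparisons by voom (adjusted P=0.032 and 0.031).

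Cdc45 and the GINS complex, which turn loaded MCM into a moving helicase, held 2 of the genes called lower, Cdc45 and Gins1. Cdc45 (ENSMUSG00000000028.14, minus strand of chromosome 16 from 18780447 to 18811987) held 118 and 144 FPKM in the non-injection libraries, 188 and 81.5 in those of PIASy-Mut and 19.4 and 9.66 in those of PIASy-WT. These rest on 362, 367, 438, 160, 58 and 25 fragments in the same order, and the PIASy-WT mean was 11.1% of that in non-injection and 10.8% of that in PIASy-Mut. On the log2 scale Cdc45 changed by -3.15 relative to non-injection (SE 0.49, limma adjusted P=0.031) and by -3.08 relative to PIASy-Mut (SE 0.49, limma adjusted P=0.029). Cdc45 overlaps Ufd1 on the other strand, which had an FPKM of 4.92 to 10.2 in the other libraries and 2.26 and 3.41 in PIASy-WT, and reads of the pair cannot be told apart where they overlap.

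Gins1 (ENSMUSG00000027454.10, plus strand of chromosome 2 from 150905400 to 150931280) held 35.8 and 29.2 FPKM in the non-injection libraries, 46.0 and 21.9 in those of PIASy-Mut and 4.48 and 7.46 in those of PIASy-WT. With 9 and 13 fragments in PIASy-WT, it changed by -2.29 relative to non-injection (SE 0.43, limma adjusted P=0.039) and by -2.27 relative to PIASy-Mut (SE 0.43, limma adjusted P=0.039). The other GINS genes were not called by limma and did not share 1 direction. Voom called Gins2 lower in both comparisons (adjusted P=0.040 and 0.038), Gins3 lower against PIASy-Mut (0.030) and Gins4 higher against non-injection (0.045). Gins2 held 13.4 and 13.6 FPKM in the non-injection libraries, 15.8 and 12.3 in those of PIASy-Mut and 5.52 and 6.80 in those of PIASy-WT without overlap. Gins3 rested on 5 to 48 fragments, and its PIASy-WT libraries were the lowest too. The log2 fold changes of Gins2 and Gins3 were between -1.93 and -1.02 over both comparisons. Gins4 had the opposite order, with 57.6 and 63.6 FPKM in the non-injection libraries, 82.6 and 92.7 in those of PIASy-Mut and 99.0 and 123 in those of PIASy-WT. Its log2 fold changes were 0.85 (95% interval 0.27 to 1.43, adjusted P=0.083 by limma) and 0.33 (-0.25 to 0.91, adjusted P=0.424).

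**Figure D3:**
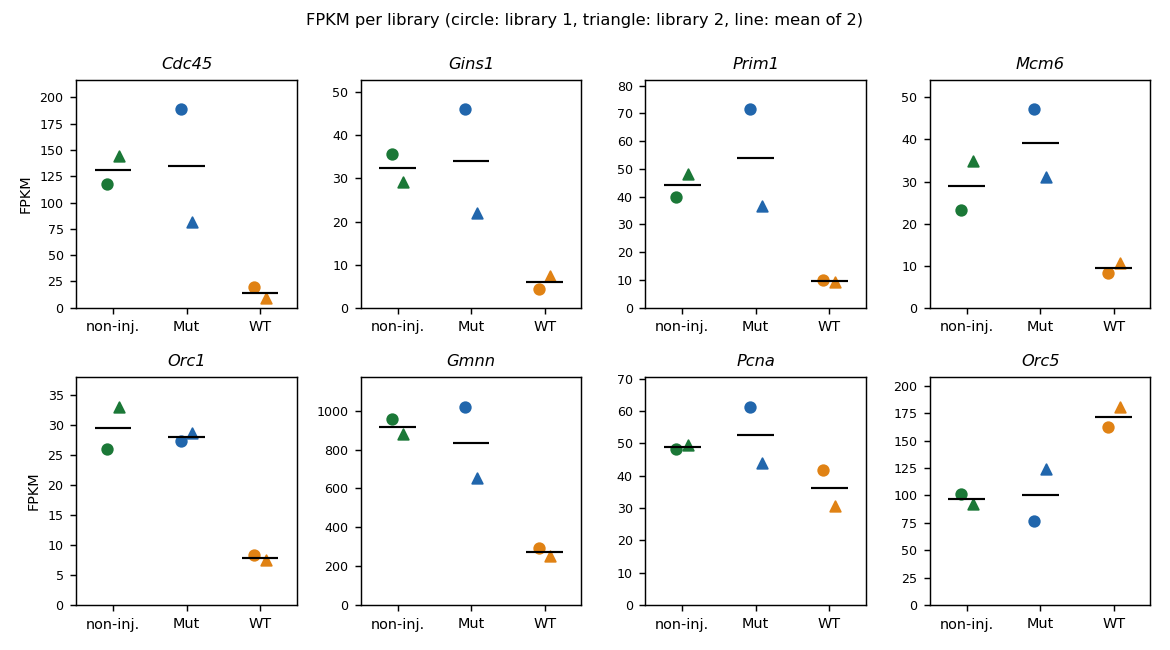
FPKM per library on axes that start at 0 for the 6 genes called lower in at least 1 comparison, for Pcna and for Orc5, with a circle for library 1, a triangle for library 2 and a line for the mean of 2. PIASy-WT sits lowest for the 6 called genes and for Pcna and highest for Orc5, and PIASy-Mut library 1 is above library 2 for each of the called genes except Orc1.

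Among the polymerases, 1 of 9 tested genes fell by limma. Prim1 (ENSMUSG00000025395.14, plus strand of chromosome 10 from 128015168 to 128030037), the catalytic subunit of primase, held 40.0 and 48.2 FPKM in the non-injection libraries, 71.4 and 36.8 in those of PIASy-Mut and 9.95 and 9.45 in those of PIASy-WT. The PIASy-WT libraries were nearly equal, at 22% of the non-injection mean and 17.9% of the PIASy-Mut mean. On the log2 scale Prim1 changed by -2.07 relative to non-injection (SE 0.36, limma adjusted P=0.034) and by -2.29 relative to PIASy-Mut (SE 0.36, limma adjusted P=0.029). Its partners in the same complex were not called by limma or voom. Pola1, the catalytic subunit of polymerase alpha, held 14.7 and 16.3 FPKM in the non-injection libraries, 16.6 and 15.4 in those of PIASy-Mut and 18.7 and 20.1 in those of PIASy-WT, a small and uncalled difference in the other direction. Prim2, the large primase subunit, held 6.30 and 2.68 FPKM in the non-injection libraries, 6.36 and 3.09 in those of PIASy-Mut and 1.78 and 2.05 in those of PIASy-WT, which were the lowest (log2 fold changes -0.83 and -0.91, adjusted P=0.329 and 0.299 by limma). Pola2, the regulatory subunit of polymerase alpha, lay between 4.47 and 12.4 FPKM with overlap of the groups.

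Polymerases delta and epsilon held no gene called by limma, and the genes described here were chosen after their values were seen. Pole, the catalytic subunit of polymerase epsilon, which copies the leading strand, held 55 and 50 fragments in the non-injection libraries, 52 and 20 in those of PIASy-Mut and 3 and 6 in those of PIASy-WT. Its FPKM in PIASy-WT was 8.85% of that in non-injection, the lowest share of any tested replication gene, but at 0.203 and 0.468 the added 1 of the log scale shrinks its fold change, which was -1.85 (adjusted P=0.062 by limma) and -1.63 (adjusted P=0.080). Over the alternatives it was between -3.50, by voom, and -0.72 against non-injection and between -3.23, by voom, and -0.62 against PIASy-Mut, the smaller values with a pseudocount of 5. In voom on the fragments Pole (adjusted P=0.0066 and 0.012) and Pole2 (0.034 and 0.035) were called lower in both comparisons and Pold3 higher against non-injection (0.029). Pole2, its second subunit, held 13.5 and 12.6 FPKM in the non-injection libraries, 18.5 and 9.56 in those of PIASy-Mut and 5.50 and 3.62 in those of PIASy-WT, and 8.16% of its 50-base sequences occur in another gene. Pole3, a histone-fold subunit, lay between 42.5 and 64.0 FPKM in all 6 libraries. Pold3, an accessory subunit of polymerase delta, held 38.6 and 40.7 FPKM in the non-injection libraries, 45.5 and 62.8 in those of PIASy-Mut and 69.7 and 73.9 in those of PIASy-WT (log2 fold change 0.84, adjusted P=0.0998, and 0.42, adjusted P=0.348 by limma).

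The clamp and its loader showed no difference called by limma, and voom called Rfc5 higher against PIASy-Mut (log2 fold change 0.98, adjusted P=0.0495). Pcna (ENSMUSG00000027342.14, minus strand of chromosome 2 from 132249162 to 132253314) held 48.3 and 49.4 FPKM in the non-injection libraries, 61.4 and 44.0 in those of PIASy-Mut and 41.8 and 30.5 in those of PIASy-WT. The PIASy-WT libraries were the lowest, by little, with a log2 difference of -0.44 from non-injection (95% interval -1.14 to 0.26, limma adjusted P=0.365) and of -0.53 from PIASy-Mut (-1.23 to 0.17, limma adjusted P=0.294). Of its 50-base sequences 19.1% also occur in another gene, so its count is uncertain. The 5 clamp loader genes, Rfc1 to Rfc5, had log2 fold changes between -0.45 and 0.76 against non-injection and between -0.06 and 0.92 against PIASy-Mut. Their summed FPKM was 67.9 and 80.3 in the control libraries without injection, 72.8 and 71.1 with PIASy-Mut and 87.9 and 81.2 with PIASy-WT, so the PIASy-WT libraries were the highest.

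In RPA, which covers single strands, no gene was called by limma, and voom called Rpa2 lower in both comparisons (adjusted P=0.0067 and 0.0050). Rpa2 held 80.6 and 66.5 FPKM in the non-injection libraries, 131 and 47.9 in those of PIASy-Mut and 21.4 and 19.5 in those of PIASy-WT (log2 fold changes -1.79 and -1.91, adjusted P=0.073 and 0.065 by limma). Its spread was widest between the PIASy-Mut libraries, and PIASy-WT stayed below both. Over the alternatives its log2 fold change against PIASy-Mut was between -2.62 and -1.19, the values without PIASy-Mut library 2 and library 1. Rpa1, the large DNA-binding subunit, was much less abundant, at 2.08 to 5.30 FPKM, and its groups overlapped. Rpa3, the small subunit, lay between 41.8 and 76.8 FPKM with overlap of the groups. The DNA ligase gene Lig1 and the fork genes Wdhd1 and Timeless were each read on at most 27 fragments per library, overlapped between the groups and were not called by limma or voom.

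The levels of subunits of the same complex differed in proportion between the groups. These pairs were chosen after their values had been seen and carry no test. The FPKM ratio of Gins4 to Gins1 was 1.61 and 2.18 in the control libraries without injection, 1.79 and 4.22 with PIASy-Mut and 22.1 and 16.4 with PIASy-WT. That of Orc5 to Orc1 was 3.91 and 2.80, 2.81 and 4.35, and 19.8 and 24.2 in the same order. That of Pole3 to Pole was 12.7 and 10.7, 12.1 and 22.2, and 315 and 105, the last pair on 3 and 6 fragments of Pole. For these 3 pairs each PIASy-WT library lay above all 4 others by a wide margin, and PIASy-Mut overlapped or lay near non-injection. Rpa3 to Rpa2 stood at 0.937 in both non-injection libraries, at 0.585 and 1.07 with PIASy-Mut, and at 1.95 and 2.71 with PIASy-WT. Mcm6 to Mcm2 was 2.45 and 2.36 in the control libraries without injection, 4.51 and 4.08 with PIASy-Mut and 1.58 and 1.35 with PIASy-WT, a ratio that set all 3 groups apart.

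**Figure D4:**
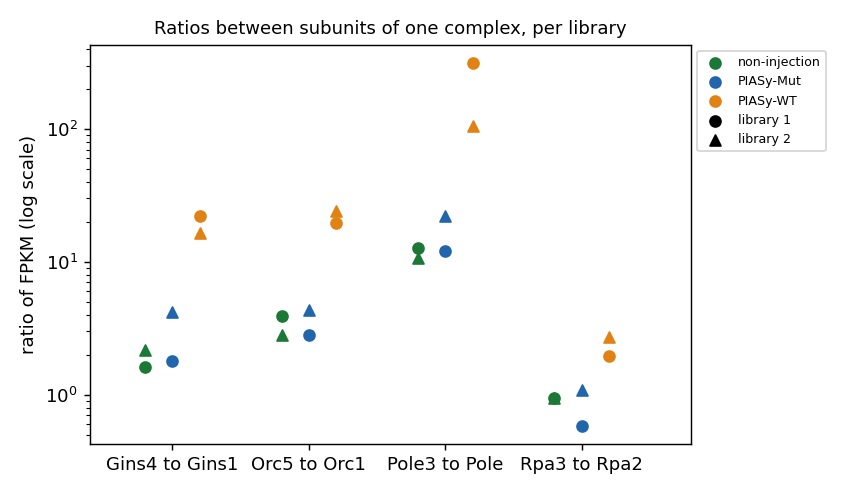
Ratio of FPKM between 2 subunits of the same complex in each library, on a log axis, with a circle for library 1 and a triangle for library 2 of each group. The PIASy-WT ratios of Gins4 to Gins1 and Orc5 to Orc1 lie between 16.4 and 24.2, above the 1.61 to 4.35 of the other libraries.

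No replication gene was called between PIASy-Mut and non-injection. Of the 42 genes 0 were called in either direction by limma, 0 were below an unadjusted P of 0.05, where 4.46% of all genes were, and 0 were called by voom. Of all genes 0% were called lower and 0.00621% higher by limma, a single gene, Pias4, and 0% and 0.0196% by voom. The count for the replication genes was 0 under all 18 alternatives. The log2 fold changes of the replication genes were between -0.72 and 0.64, with a median of 0.04 for these and for all genes tested. Of the 42, 28 had a positive sign and 14 a negative one, where 8648 and 7303 of all genes tested did. PIASy-Mut library 1 was higher than library 2 for Gmnn, Cdc45, Gins1, Prim1, Mcm6 and Rpa2, and for each of these 6, chosen after their values were seen, its libraries differed by more than those of either other group.

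Outside the set, 36 other genes of the pathway were listed, 25 firing and fork regulators and 11 genes of nucleotide supply, of which 33 were tested. Against non-injection 3 were called lower and against PIASy-Mut 2, with 0 higher in each. These were 9.1% and 6.1% of the 33, beside 5.76% and 6.01% of all genes, so the share against PIASy-Mut was at the background. The median log2 fold change was -0.29 and -0.52. Dtymk (ENSMUSG00000026281.15, minus strand of chromosome 1 from 93792576 to 93801934), the kinase that makes the dTTP precursor, was the gene called in each. It held 26.2 and 32.6 FPKM in the non-injection libraries, 54.9 and 24.0 in those of PIASy-Mut and 4.02 and 4.63 in those of PIASy-WT. On the log2 scale it changed by -2.51 relative to non-injection (SE 0.43, limma adjusted P=0.033) and by -2.81 relative to PIASy-Mut (SE 0.43, limma adjusted P=0.027). Tyms, which makes dTMP, and Dna2, a nuclease and helicase of flap processing, were called against non-injection (log2 fold changes -2.07 and -2.23, adjusted P=0.038 and 0.040 by limma), and Top2a, the topoisomerase that untangles copied DNA, against PIASy-Mut (-2.07, adjusted P=0.038). In the comparison where each was not called, the adjusted P was 0.0503 for Tyms, 0.051 for Dna2 and 0.063 for Top2a, and voom called these 3 lower in both comparisons. Dna2 rests on 9 and 3 fragments in PIASy-WT, and its log2 fold change against non-injection was between -3.16 and -1.08 over the alternatives, the latter with a pseudocount of 5, where it was not called (adjusted P=0.053). Dbf4, the activator of the firing kinase Cdc7, chosen after its values were seen, went the other way without being called by limma, though voom called it higher against non-injection (adjusted P=0.012), with 80.9 and 86.8 FPKM in the non-injection libraries, 93.6 and 117 in those of PIASy-Mut and 146 and 159 in those of PIASy-WT (log2 fold change 0.86, adjusted P=0.079, and 0.54, adjusted P=0.197 by limma).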

How the data were processed

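RNA was purified by the authors from 5 two-cell embryos per library, amplified with the SMART-Seq v4 kit (11 cycles), which primes on poly(A) tails, and made into Nextera XT libraries (13 cycles). Per the labels and the methods, reads were trimmed with Trim Galore, aligned to mm10 with STAR and uniquely mapped reads counted with featureCounts. Versions, annotation release and strand setting are not given in the sources used here. The authors deposited FPKM values for 53023 genes in 6 libraries. FPKM multiplied by gene length summed to the same total in each library, and the recovered fragments were whole for 100% of values within 0.01.

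The main test was limma 3.58.1 in R 4.3.3 (lmFit, eBayes with trend, 3 residual and 3.12 prior degrees of freedom) on log2(FPKM + 1) of all 6 libraries, over the 16100 genes that reached an FPKM of 1 in 2 or more libraries. P-values were adjusted over all these genes by the Benjamini-Hochberg method and called at 0.05 or less. The pseudocount of 1 understates changes of low genes. The authors used DESeq2 on their own counts. The deposited unit is FPKM, so fragments were tested with voom as an alternative, over genes that reached 10 fragments in 2 or more libraries. An exact permutation test of 2 against 2 libraries cannot go below 0.333 and was not used. The other alternatives changed the pseudocount, filter, scaling, eBayes settings, samples fitted and replicate block, or left out a library. Scripts were tested on simulated data.

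Genes and lists were chosen with earlier results of these data known. By the naming rule, values were given for called genes, the 4 most abundant, those at the detection limit, and Cdc6, Cdt1, Gmnn, Cdc45 and Pcna. Pathway genes called in both PIASy-WT comparisons were named too. Others named were chosen after their values were seen. The spans printed are those of the table and equal GENCODE M21. Python 3.11.15, pandas 2.3.3, numpy 2.4.6 and matplotlib 3.10.9 were used.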

Additional observations from a re-analysis of the deposited data

How the results depend on the processing

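The fold changes printed gene by gene kept their sign under all alternatives that tested the gene. Those given only as ranges did not all do so: Orc2, Orc3 and Rfc1 to Rfc4 changed sign under at least 1. The counts moved widely, and the adjusted P-values of called replication genes were between 0.029 and 0.039. Pole and Gins1 rested on 3 to 13 fragments in PIASy-WT. Against non-injection and against PIASy-Mut, the replication genes called lower numbered 5 and 6. They were 0 and 0 with no filter, and 9 and 12 of the 35 genes tested with an FPKM of at least 5. Without the mean-variance trend they were 0 and 2, and when only the groups compared were fitted 11 and 0. By voom on recovered fragments they were 14 and 17. In the main fit they were 3 and 3 when the log2 fold change had to reach 2 in size. With quantile normalization they were 4 and 3 and with median centring 5 and 3. The share of all genes called lower moved too: it was 0.553% and 0.873% with no filter, 17.4% and 17.9% with an FPKM of at least 5, 1.59% and 2.88% without the trend, 13.8% and 0% with only the groups compared, 4.34% and 3.04% with quantile normalization and 3.98% and 2.98% with median centring. Replication genes called higher numbered 0, except by voom and with only the groups compared. By voom they were 3 and 2, where 8.51% and 5.94% of all genes were called higher. With only the groups compared they were 3 against non-injection, where 7.25% of all genes were. Leaving out each library in turn left 1 library in a group, and the counts moved, as did the calls over all genes. Of the other pathway genes 3 and 2 were called lower, against 0 and 0 with no filter and 0 and 1 without the trend. With an FPKM of at least 5, where 25 were tested, they were 7 and 7. With only the groups compared they were 8 and 0, and by voom 11 and 10. With quantile normalization or median centring 1 was called lower against PIASy-Mut. Pathway genes called higher were 2 and 1 by voom, where 8.51% and 5.94% of all genes were. With only the groups compared they were 2 against non-injection, where 7.25% of all genes were. The pathway counts also moved when a library was left out. The cause was not tested. Other pseudocounts and a robust prior left 5 and 6. Quantile normalization moved the median of all genes to 0.12 and 0.11 on the log2 scale and that of the replication genes to -0.49 and -0.30, and median centring to 0.12 and 0.15, and -0.60 and -0.48.

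Libraries share numbers 1 and 2 across groups. Deviations of same-numbered libraries correlated at 0.0037, 0.085 and 0.064, so the numbers were not taken as pairs. With a replicate block, 4 replication genes were called lower in each comparison, and 2 and 4 pathway genes. Of all genes tested 4.47% and 4.96% were then called lower.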
